A study of Mus musculus with 4 samples.

Results

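The ephrins, Eph receptors, semaphorins, plexins, neuropilins, Slits, Robos, netrins and Unc5 receptors were followed in mouse embryonic stem cells that had been kept without the cytokine LIF. Genes were chosen by symbol alone: 68 of the 26994 genes in the tables carry a name of these families. The day 6 group is 2 libraries of the CJ9 line (129S4/SvJae strain, genotype WT, titled as carrying only Cas9) harvested on day 6 of LIF withdrawal. The day 4 group is 2 libraries of the same wild-type, Cas9-carrying line harvested on day 4. All 4 libraries share the line, the medium and the LIF withdrawal, and cells with the Evx1as/Evx1 locus deleted were not analysed here. Groups follow the titles, source names and harvest text of the labels. The culture text gives 4 days for day 6 replicate 1, 6 for day 6 replicate 2, 2 for day 4 replicate 1 and 6 for day 4 replicate 2, which differs from the titles for 3 of the 4 libraries and bears on every difference between the days. The labels do not state whether replicates were separate cultures. The p-values therefore reflect library-to-library spread that may be technical.

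Axon guidance molecules are secreted or cell-surface cues and the receptors that read them. Ephrins are membrane-bound ligands of the Eph receptor tyrosine kinases and can signal back into the cell that carries them; semaphorins bind plexins, for the secreted class mostly together with a neuropilin; Slits bind Robo receptors; netrins bind Dcc, neogenin and the Unc5 receptors. They are named for growing axons, but the same molecules position cells and set boundaries in gastrulating mesoderm, somites, heart and blood vessels, and in stem cell cultures they need not mark neurons.

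Levels are the authors' deposited FPKM (fragments for each kilobase of transcript and each 1000000 mapped fragments), summed over the transcript rows of a gene. Differences are day 6 minus day 4 on log2(FPKM + 1), which understates the change of low genes. From the width of the deposited intervals, the depth was near 6260000 and 5540000 mapped fragments for the day 6 libraries, against 3470000 and 3370000 for the day 4 libraries. Low levels are therefore less precise at day 4. In bulk RNA, fewer cells of a type and less RNA per cell cannot be told apart.

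The promoter of each of the 4 genes with the smallest unadjusted p is shown first, because Nrp1, Efna1 and Unc5c were the clearest of the genes higher at day 6 and Epha2 of those lower. Each sequence is the 250 bases before the RefSeq start site that coincides with the 5′ end of the deposited transcript (GRCm38.p6, reference strain and not the 129S4/SvJae cells; for Efna1 the start of NM_010107, the row with most of its signal at day 6, while NM_001162425 starts farther upstream), and capitals mark matches on either strand to the GC box, spelled GGGCGG, or to the site bound by T-box factors, spelled AGGTGT. The Nrp1 promoter is chr8:128358823-128359072 on the plus strand, Efna1 chr3:89279646-89279895 on the minus strand, Epha2 chr4:141300971-141301220 on the plus strand and Unc5c chr3:141465314-141465563 on the plus strand.
Nrp1: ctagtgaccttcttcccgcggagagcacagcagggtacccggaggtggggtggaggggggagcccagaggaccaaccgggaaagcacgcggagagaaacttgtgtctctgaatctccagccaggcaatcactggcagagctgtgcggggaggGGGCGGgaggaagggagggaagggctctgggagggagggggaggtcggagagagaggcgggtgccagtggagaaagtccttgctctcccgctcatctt
Efna1: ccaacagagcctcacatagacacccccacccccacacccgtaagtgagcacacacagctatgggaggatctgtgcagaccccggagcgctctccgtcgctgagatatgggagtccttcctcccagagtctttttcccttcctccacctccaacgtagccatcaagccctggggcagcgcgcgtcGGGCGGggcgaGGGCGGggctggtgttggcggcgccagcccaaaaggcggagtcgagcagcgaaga
Epha2: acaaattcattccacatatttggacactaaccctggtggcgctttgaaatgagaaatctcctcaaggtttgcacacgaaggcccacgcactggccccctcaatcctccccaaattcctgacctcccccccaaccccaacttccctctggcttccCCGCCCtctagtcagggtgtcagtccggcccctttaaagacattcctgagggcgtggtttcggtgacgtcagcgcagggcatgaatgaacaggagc
Unc5c: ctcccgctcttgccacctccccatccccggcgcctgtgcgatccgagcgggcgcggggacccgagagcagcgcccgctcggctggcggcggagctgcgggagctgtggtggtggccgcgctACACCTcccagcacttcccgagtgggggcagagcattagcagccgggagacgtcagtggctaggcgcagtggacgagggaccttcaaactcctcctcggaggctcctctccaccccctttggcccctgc
The Nrp1 window held 1 GC box and 11 CpG dinucleotides, the Efna1 window 2 GC boxes and 18 CpG, and the Epha2 window 1 GC box on the minus strand and 9 CpG. The Unc5c window held 23 CpG and 1 T-box site, on the minus strand. Both strands were also searched for the site of GATA-family factors, spelled AGATAA, the octamer bound by POU-family factors, spelled ATGCAAAT, an E-box, spelled CACCTG, and the core promoter TATA box, spelled TATAAA. None of these 4 windows held any of them. Of the 68 genes, 59 had a promoter in the RefSeq table. A GC box lay in 69.5% of the 59 and in 32.7% of all 32851 promoters, which include non-coding genes; the median number of CpG was 16 in the 59 and 6 in all. T-box sites lay in 8.47% of the 59 against 11.8% of all, GATA in 3.39% against 9.99%, the octamer in 0% against 1.6%, the E-box in 15.3% against 17.2% and TATA boxes in 3.39% against 12.4%. The E-box and T-box letters can overlap on the same bases. A match describes the letters only.

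Of the 68 genes, 42 had a mean of at least 1 FPKM over the 4 libraries and were tested. Of the other 26, Epha6 was listed at 0 in all 4 libraries, 20 stayed under 1 FPKM in every library and 5 reached 1 FPKM in at least 1 library, none above 2.06 FPKM. The untested genes include the receptors Epha3, Epha5, Epha7, Robo3, Robo4 and Unc5d, and Sema3a, the classical repellent of sensory axons. No member passed the adjusted threshold of 0.05 (limma, Benjamini-Hochberg; smallest adjusted p = 0.267), nor did any of the 11716 genes tested (0%). At an unadjusted p under 0.05 there were 11 of the 42 members higher (26.2%) and 2 lower (4.76%), beside 12.9% (higher) and 2.41% (lower) of all genes. Both day 6 libraries lay above both day 4 libraries for 19 of the 42 members (45.2%), against 41.6% of all genes tested, and below them for 7 (16.7%), against 11.5%. The median difference was 0.64 log2 units over the members and 0.51 over all genes tested. The share of members without overlap was thus near that of all genes, and the share at an unadjusted p under 0.05 was above it. Members and all genes were not alike: 24 of the 42 members had 56% GC or more, against 2642 of 11414 genes of known GC. The median absolute replicate gap of members was 0.79 at day 4 and 0.34 at day 6, against 1.07 and 0.19 over all genes tested. The part of these traits in the share was not tested. For the counts by family below, the same 41.6% (higher) and 11.5% (lower) of all genes are the background. With every library centred on the same median, the median of all genes was -0.12 and the split of members was 11 higher and 11 lower (20.3% and 26.4% of all genes). With quantile normalization it was 12 higher and 10 lower (23.1% and 25% of all genes). An exact two-sided permutation test of 2 libraries against 2 cannot give a p below 0.333.

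**Figure D1:**
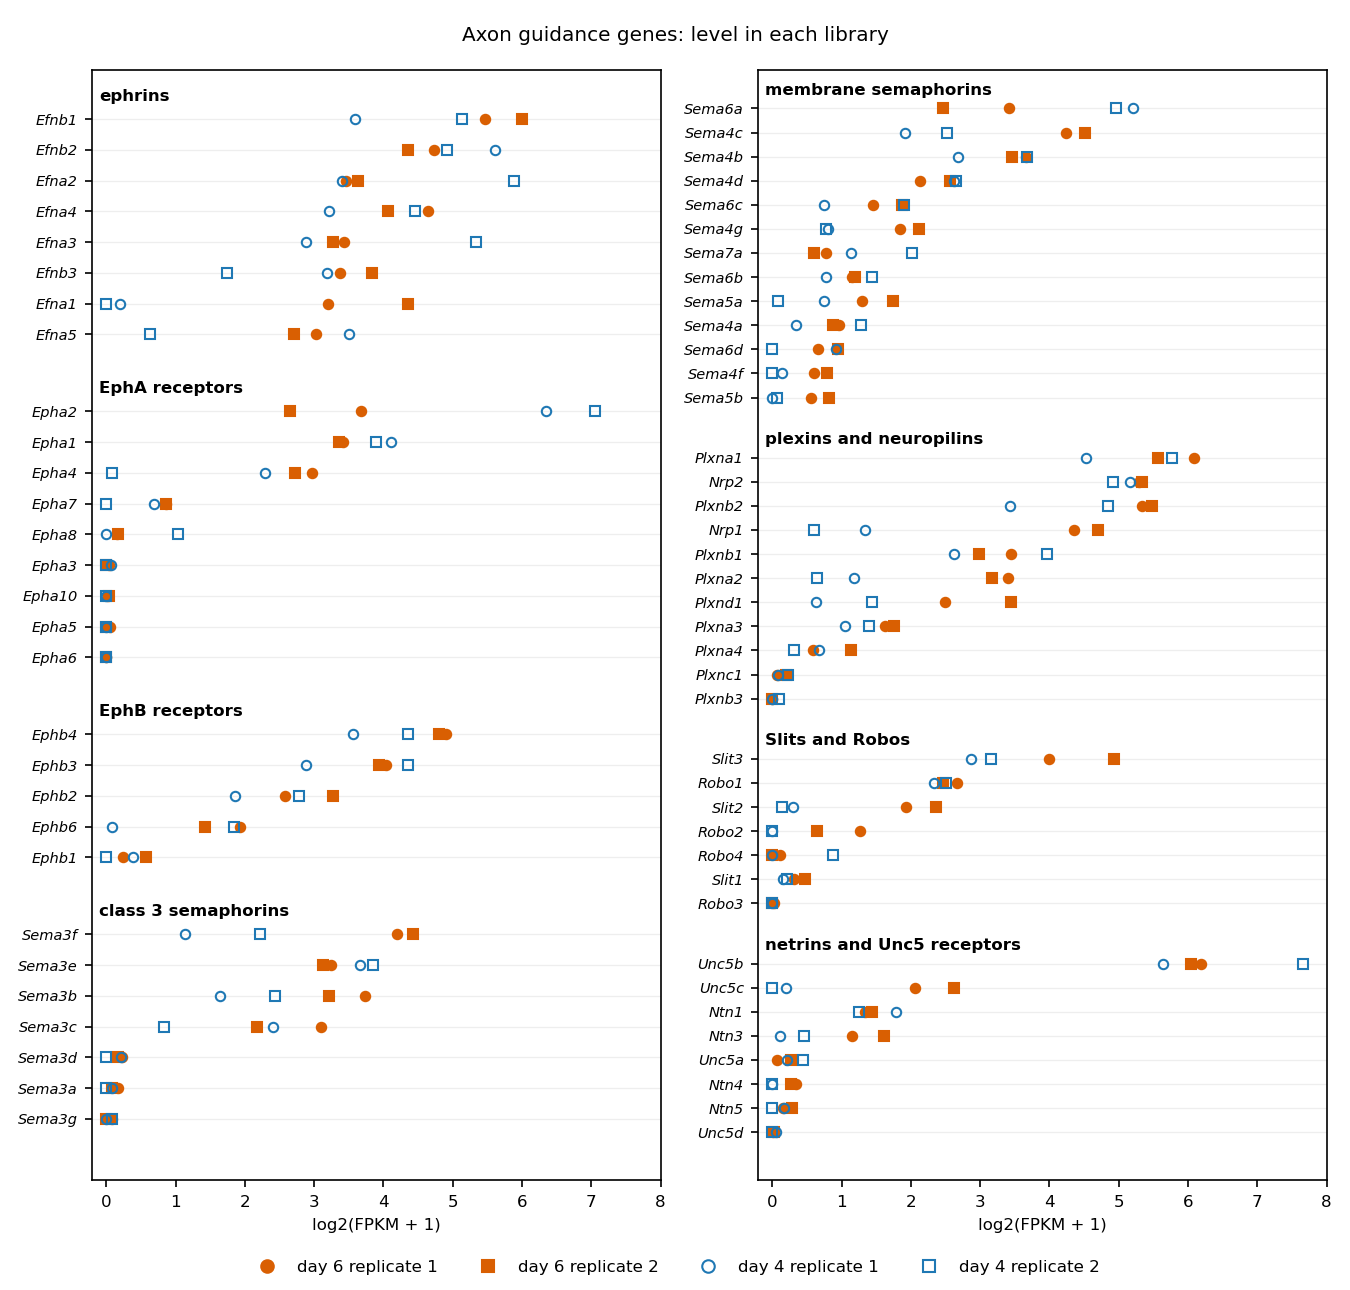
Level of each of the 68 genes in each library on the log2(FPKM + 1) scale, by family and ordered by mean level; filled orange symbols are day 6, open blue symbols day 4, circles replicate 1 and squares replicate 2. Epha2 and Sema6a lie lower and Nrp1, Efna1 and Sema3f higher at day 6, with 20 genes under 1 FPKM in all libraries and Epha6 at 0.

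Among the ephrins, Efna1 was the one with the widest separation. Efna1, a ligand tethered by a lipid anchor that binds Epha2 and other EphA receptors, had 8.20 and 19.5 FPKM in day 6 replicates 1 and 2, against 0.151 FPKM and a listed 0 in day 4 replicates 1 and 2. The days did not overlap, and the difference was 3.68 log2 units with a standard error of 0.55 (limma, adjusted p = 0.267). Efnb1, a transmembrane ephrin encoded on the X chromosome, had 43.2 and 63.2 FPKM at day 6, against 11.04 and 34.2 FPKM at day 4 (1.37, standard error 0.70, limma adjusted p = 0.411). Efnb1 was the most abundant ephrin in both day 6 libraries, with 31.5 and 40.4% of the summed ephrin FPKM, against 10.9 and 18.5% at day 4.

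Efnb3 had 9.31 and 13.2 FPKM at day 6, against 8.12 and 2.33 FPKM at day 4. Its difference of 1.14 log2 units was smaller in size than the gap between the day 4 libraries, where replicate 2 minus replicate 1 was -1.45. Efnb2, the ephrin of arterial endothelium and a partner of Ephb4, pointed the other way, with 25.6 and 19.4 FPKM at day 6, against 47.7 and 29.2 FPKM at day 4. All 8 ephrins were tested, 3 higher and 1 lower without overlap. The other 4, described after their values were seen, overlapped between the days because the day 4 libraries differed. Efna2 had 9.99 and 11.4 FPKM at day 6, against 9.61 and 58.2 FPKM at day 4. Efna3 had 9.80 and 8.63 FPKM at day 6, against 6.40 and 39.5 FPKM at day 4. Day 4 replicate 2 was the high library for both genes. Efna4 had 24.1 and 15.7 FPKM at day 6, against 8.29 and 21.0 FPKM at day 4. Its difference of 0.52 turned to -0.11 with median centring and to -0.10 without day 4 replicate 1. Efna5 had 7.16 and 5.53 FPKM at day 6, against 10.3 and 0.551 FPKM at day 4, with day 4 replicate 2 as the low library. Efna1, Efna3 and Efna4 are neighbours on chromosome 3 of mm10 (89271730 to 89280951, 89314951 to 89322879 and 89333393 to 89338028), and of these 3 only Efna1 was near 0 at day 4.

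Epha2 was the leading EphA gene in both day 4 libraries and in day 6 replicate 1, and Epha1 in day 6 replicate 2. Epha2, the receptor that Efna1 binds and that is known in the mouse from the gastrulating embryo, had 11.7 and 5.30 FPKM in the day 6 libraries, against 79.98 and 132 FPKM in the day 4 libraries. The deposited intervals of the days lay far apart: the highest upper bound at day 6 was 13.0 FPKM and the lowest lower bound at day 4 was 73.6 FPKM. The day 6 mean was 0.0804 times the day 4 mean, and the difference was -3.53 log2 units with a standard error of 0.59 (limma, adjusted p = 0.267). Epha2 made up 40.0 and 25.1% of the summed EphA FPKM at day 6, against 79.3 and 89.8% at day 4. The sum over the 9 EphA receptors was 29.3 and 21.1 FPKM at day 6, against 101 and 147 FPKM at day 4.

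Epha1, the founding member of the receptor family, had 9.72 and 9.23 FPKM at day 6, against 16.3 and 13.9 FPKM at day 4, with no overlap (-0.61, standard error 0.42, limma adjusted p = 0.503). Epha4, which binds ephrins of both classes and shapes somite borders, had 6.83 and 5.61 FPKM at day 6, against 3.90 and 0.0641 FPKM at day 4. Both day 6 values of Epha4 were higher, by a margin that rests on the day 4 library used: the difference was 0.56 without day 4 replicate 2 and 2.76 without day 4 replicate 1. No other EphA receptor had a mean of 1 FPKM. Epha2 and Epha1 were thus lower in both day 6 libraries while their ligand gene Efna1 was higher. Epha4 was also higher in both day 6 libraries, and the ephrin genes Efna2, Efna3, Efna4 and Efna5 overlapped between the days.

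The EphB receptors were present on both days with smaller differences. Ephb4, the venous endothelial receptor for Efnb2, had 29.0 and 26.9 FPKM at day 6, against 10.8 and 19.5 FPKM at day 4 (0.90, standard error 0.50, limma adjusted p = 0.441). It was the most abundant EphB receptor in 3 of the 4 libraries. In day 4 replicate 2, Ephb3 stood level with it, at 19.5 FPKM each. Ephb2 had 4.97 and 8.61 FPKM at day 6, against 2.62 and 5.86 FPKM at day 4, and its difference of 0.60 turned to -0.03 with median centring. Ephb6, whose kinase domain is inactive, had 2.79 and 1.69 FPKM at day 6, against 0.0543 and 2.58 FPKM at day 4. Its difference of 0.72 turned to -0.12 with quantile normalization and to -0.16 without day 4 replicate 1. Ephb3 had 15.4 and 14.3 FPKM at day 6, against 6.37 and 19.5 FPKM at day 4. Its difference of 0.37 turned to -0.26 with median centring, to -0.08 with quantile normalization and to -0.37 without day 4 replicate 1. Of the 4 tested EphB receptors, 1 was higher without overlap and none lower.

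**Figure D2:**
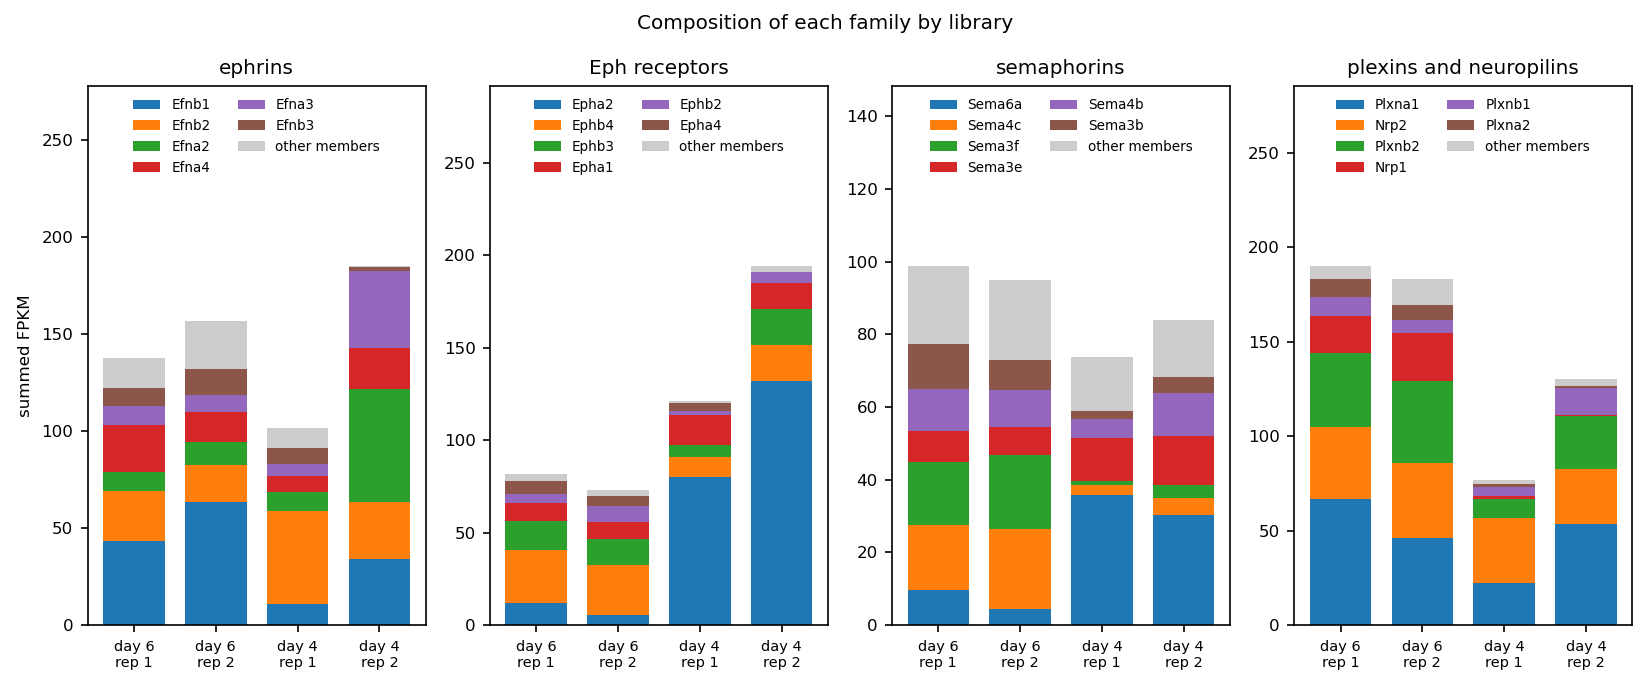
Summed FPKM of the ephrins, Eph receptors, semaphorins, and plexins with neuropilins in each library, day 6 left of day 4, with the 6 genes of highest mean level coloured and the other members in grey. Epha2 fills most of the Eph bar at day 4 (79.98 and 132 FPKM) and little of it at day 6 (11.7 and 5.30 FPKM), and Sema6a gives way to Sema4c and Sema3f.

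The secreted class 3 semaphorins differed in composition between the days. Sema3f, a repellent cue that signals mainly through Nrp2, had 17.3 and 20.5 FPKM at day 6, against 1.21 and 3.67 FPKM at day 4. The days did not overlap, the day 6 mean was 7.76 times the day 4 mean, and the difference was 2.63 log2 units with a standard error of 0.55 (limma, adjusted p = 0.267). Sema3b had 12.3 and 8.26 FPKM at day 6, against 2.12 and 4.40 FPKM at day 4 (1.44, standard error 0.52, limma adjusted p = 0.318). Sema3b and Sema3f are close neighbours on chromosome 9 of mm10 (107598115 to 107609241 and 107681502 to 107710475), and both were higher in both day 6 libraries.

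Sema3e, which binds Plxnd1 without a neuropilin, was the leading class 3 gene at day 4. It had 8.48 and 7.74 FPKM at day 6, against 11.6 and 13.4 FPKM at day 4, and its share of the class was 18.4 and 19.3% at day 6, against 59.7 and 60.1% at day 4. Sema3f held 37.6 and 51.0% of the class at day 6, against 6.198 and 16.4% at day 4. Sema3c, a cue for the cardiac outflow tract, overlapped, with 7.59 and 3.50 FPKM at day 6, against 4.32 and 0.783 FPKM at day 4. Of the 7 class 3 genes 4 were tested, with 2 higher and 1 lower without overlap, and Sema3a, Sema3d and Sema3g stayed under 1 FPKM throughout.

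Among the membrane-bound semaphorins, Sema4c and Sema6a differed in opposite directions. Sema4c, a transmembrane ligand of Plxnb2, had 18.0 and 21.8 FPKM at day 6, against 2.79 and 4.72 FPKM at day 4 (2.16, standard error 0.47, limma adjusted p = 0.267). Sema6a, a transmembrane ligand of Plxna2 and Plxna4, had 9.68 and 4.49 FPKM at day 6, against 35.7 and 30.3 FPKM at day 4 (-2.15, standard error 0.53, limma adjusted p = 0.267). Neither gene overlapped between the days. Sema4c held 34.0 and 39.9% of the summed FPKM of the 13 membrane semaphorins at day 6, against 5.12 and 7.64% at day 4. Sema6a held 18.3 and 8.21% at day 6, against 65.7 and 49.0% at day 4. The sum of this class was 52.9 and 54.7 FPKM at day 6, against 54.4 and 61.8 FPKM at day 4. Sema4g had 2.57 and 3.33 FPKM at day 6, against 0.755 and 0.716 FPKM at day 4, also without overlap (1.18, standard error 0.37, limma adjusted p = 0.294). Sema7a, which is held by a lipid anchor and binds integrins and Plxnc1, had 0.710 and 0.517 FPKM at day 6, against 1.19 and 3.05 FPKM at day 4. Of the 9 tested genes of the class, 3 were higher and 3 lower without overlap.

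The receptors of the semaphorins included the gene with the smallest p of the whole set. Nrp1, a co-receptor for class 3 semaphorins and for VEGF-A, had 19.4 and 25.03 FPKM at day 6, against 1.53 and 0.515 FPKM at day 4. The lowest lower bound at day 6 was 18.0 FPKM and the highest upper bound at day 4 was 1.97 FPKM. The day 6 mean was 21.7 times the day 4 mean, and the difference was 3.56 log2 units with a standard error of 0.49 (limma, adjusted p = 0.267, unadjusted p = 0.00134). Nrp2, the partner receptor of Sema3f, was abundant on both days, with 38.0 and 39.3 FPKM at day 6, against 34.8 and 29.2 FPKM at day 4. Its difference of 0.27 turned to -0.36 with median centring, to -0.47 with a correction for GC content and to -0.16 when the highest transcript row was used. Nrp1 therefore made up 33.7 and 38.9% of the neuropilin FPKM at day 6, against 4.20 and 1.73% at day 4.

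Plxna2, a receptor for Sema6a and for class 3 semaphorins, had 9.57 and 8.01 FPKM at day 6, against 1.26 and 0.563 FPKM at day 4 (2.38, standard error 0.43, limma adjusted p = 0.267). Plxnd1, the endothelial receptor of Sema3e, had 4.61 and 9.85 FPKM at day 6, against 0.5505 and 1.70 FPKM at day 4 (1.93, standard error 0.57, limma adjusted p = 0.288). Both receptors were higher at day 6 without overlap, while their ligand genes Sema6a and Sema3e were lower. Plxnb2, the receptor of Sema4c, had 39.5 and 43.8 FPKM at day 6, against 9.82 and 27.7 FPKM at day 4, in the same direction as its ligand gene. Plxna1 was the most abundant plexin in every library and overlapped, with 66.7 and 46.2 FPKM at day 6, against 22.0 and 53.7 FPKM at day 4. Of the 6 tested plexins 4 were higher without overlap and none lower, beside 41.6% and 11.5% of all genes.

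**Figure D3:**
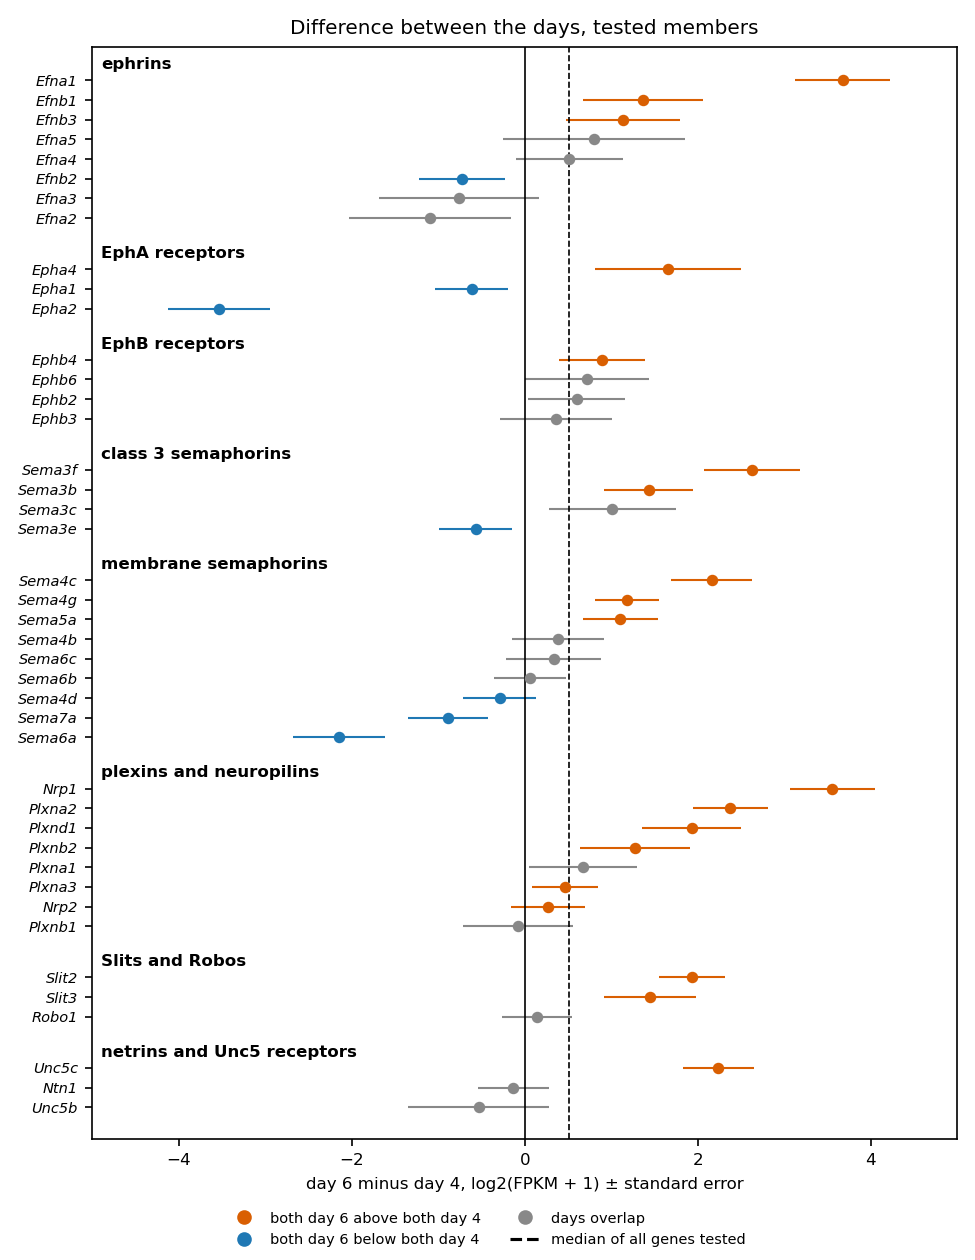
Difference of day 6 minus day 4 on the log2(FPKM + 1) scale for the 42 tested genes; points are limma estimates, bars 1 standard error, and the dashed line is the median of all genes tested, 0.51. Orange marks the 19 genes whose day 6 libraries both lay above day 4, blue the 7 whose day 6 libraries both lay below, and grey the 16 that overlapped; none passed the adjusted threshold.

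In the Slit and Robo families the ligands differed and the receptor did not separate. Slit2, a secreted repellent, had 2.83 and 4.13 FPKM at day 6, against 0.225 and 0.101 FPKM at day 4 (1.93, standard error 0.38, limma adjusted p = 0.267). Slit3, a relative expressed in mesoderm derivatives such as the heart, had 14.9 and 29.4 FPKM at day 6, against 6.26 and 7.93 FPKM at day 4 (1.45, standard error 0.53, limma adjusted p = 0.319). Slit3 held 82.9 and 86.7% of the summed Slit FPKM at day 6, against 94.8 and 96.9% at day 4. Robo1, their main receptor in these cells by level, had 5.35 and 4.501 FPKM at day 6, against 4.04 and 4.70 FPKM at day 4. Its difference of 0.14 turned to -0.49 with median centring, to -0.51 with quantile normalization and to -0.60 with a correction for GC content. Robo2 was not tested: it had 1.42 and 0.569 FPKM at day 6 and was listed at 0 in both day 4 libraries. Robo4, the endothelial Robo, had 0.0855 FPKM and a listed 0 at day 6, against a listed 0 and 0.841 FPKM at day 4, and was not tested either.

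Netrin ligands were scarce, whereas Unc5b was abundant and Unc5a and Unc5d stayed under 1 FPKM in every library. Ntn1 had 1.53 and 1.71 FPKM at day 6, against 2.45 and 1.38 FPKM at day 4, and was the 1 tested netrin. Its difference of -0.13 turned to 0.14 without day 4 replicate 1. Ntn3, a second netrin with a mean just under 1 FPKM and so not tested, had 1.23 and 2.06 FPKM at day 6, against 0.0825 and 0.375 FPKM at day 4, with the deposited intervals apart. Unc5b, a repulsive netrin receptor also known from endothelial cells, had 71.9 and 65.0 FPKM at day 6, against 48.6 and 202 FPKM at day 4. It was the most abundant of the 68 genes in day 6 replicate 1, day 6 replicate 2 and day 4 replicate 2, and its direction rests on the day 4 library used: the difference was -0.53 with all libraries, -1.55 without day 4 replicate 1 and 0.48 without day 4 replicate 2. Unc5c, a second repulsive receptor, had 3.16 and 5.17 FPKM at day 6, against 0.150 FPKM and a listed 0 at day 4 (2.24, standard error 0.41, limma adjusted p = 0.267). Dcc, the attractive netrin receptor of commissural axons, was listed at 0 in all 4 libraries. Neo1 (neogenin), its close relative, had 8.31 and 9.67 FPKM at day 6, against 8.02 and 1.13 FPKM at day 4.

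Some members with several transcript rows were split unevenly between libraries. For Ephb4, NM_010144 had 29.0 and 21.9 FPKM at day 6, against 0.0874 and 19.5 FPKM at day 4, whereas NM_001159571 had 0.000293 and 5.05 FPKM at day 6, against 10.7 and 0.000686 FPKM at day 4. The rows are 4334 and 4361 bases long. The day 4 replicates gave the signal to different rows, while both day 6 replicates gave most of it to NM_010144. For Efna5, NM_207654 was the higher row in both day 6 libraries and NM_010109 in both day 4 libraries. These rows are 5259 and 5178 bases long. In day 4 replicate 2 the higher row had only 0.55 FPKM, so the day 4 side rests mainly on replicate 1. NM_207654 had 4.58 and 3.56 FPKM at day 6, against 0.000975 and 0.0015 FPKM at day 4. NM_010109 had 2.59 and 1.97 FPKM at day 6, against 10.3 and 0.55 FPKM at day 4. For Nrp2, 5 rows averaged at least 1 FPKM. The shorter NM_001077407 had 12.6 and 12.4 FPKM at day 6, against 10.3 and 23.2 FPKM at day 4, and the longer NM_001077404 had 16.2 and 16.5 FPKM at day 6, against 14.7 and 3.52 FPKM at day 4. The gene sums are used for all comparisons.

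The gap between the day 4 libraries moved with base composition, among members and among all genes; its part in the results was not tested. Day 4 replicate 2 minus replicate 1 had a median of 1.04 log2 units over the 24 tested members of 56% GC or more, of which 21 were higher in replicate 2, and of 1.12 over all 2642 tested genes of that range. Over the 10 tested members under 50% GC the median was -0.24, with 2 higher in replicate 2, and over all 4984 tested genes of that range it was -1.23. The median absolute gap between replicates over the members was 0.34 at day 6 and 0.79 at day 4. Over all genes tested it was 0.19 at day 6 and 1.07 at day 4, so the contrast is not particular to the members. The gap was wider at day 4 for 32 of the 42 members, and the matching share over all genes was not computed. After a loess correction of each library for transcript GC, the differences were 3.06 for Efna1, 2.81 for Nrp1, 2.37 for Sema3f, 1.87 for Sema4c, 1.63 for Plxna2, 1.61 for Unc5c, 1.25 for Slit2, -2.88 for Sema6a and -3.90 for Epha2, with the median of all genes at -0.01. None passed under this correction (smallest adjusted p among the named genes 0.168), and 17 members were then higher and 12 lower without overlap (27.2% and 27.9% of all genes).

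**Figure D4:**
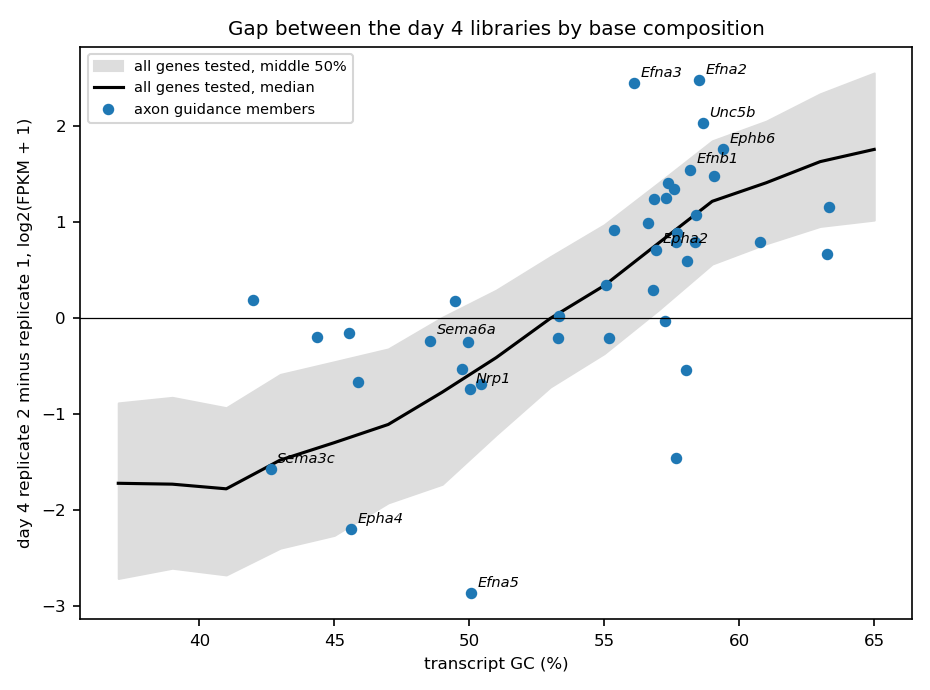
Day 4 replicate 2 minus day 4 replicate 1 on the log2(FPKM + 1) scale against transcript GC in percent; blue points are the 42 tested members, the black line is the median and the grey band the middle 50% of all genes tested in bins of 2% GC. Most members of high GC, such as Efna2, Efna3 and Unc5b, were higher in replicate 2, and Efna5, Epha4 and Sema3c lower, while Nrp1 and Epha2 differed by less than 1 log2 unit.

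The number of members called depended on which day 4 libraries entered. Leaving out day 4 replicate 1, 17 members were higher (40.5%) and 7 lower (16.7%) past the adjusted threshold, where 49.9% of all genes were higher and 17% lower. Leaving out day 4 replicate 2, 21 were higher (50%) and 4 lower (9.52%), where 36.2% of all genes were higher and 15.7% lower; such a fit takes the lone day 4 library to have the spread of day 6. Without either day 6 library none passed. In both fits that left out a day 4 library, the same 12 genes were higher, Efna1, Nrp1, Plxna2, Plxnb2, Plxnd1, Sema3b, Sema3f, Sema4c, Sema4g, Slit2, Slit3 and Unc5c, and the same 2 lower, Epha2 and Sema6a. These fits share both day 6 libraries, so their overlap is not independent, and with so many of all genes passing it is not particular to the members. Leaving out 1 day 4 library moved the difference by over 1.5 times for 25 of the 42 members and by less for the other 17. The matching share over all genes was not computed, so this count is not a result particular to the members. Members that moved include Efnb1, at 0.60 without day 4 replicate 1 and 2.15 without day 4 replicate 2, and Ephb4, at 0.50 without day 4 replicate 1 and 1.29 without day 4 replicate 2. Plxnb2 was at 0.57 without day 4 replicate 1 and 1.98 without day 4 replicate 2. Of the 32 tested members with a single transcript row, the deposited intervals of both day 6 libraries lay above those of both day 4 libraries for 12 and below them for 4, which are Epha1, Epha2, Sema3e and Sema6a. The matching share over all genes was not computed, so these interval counts are not a result particular to the members.

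The wider pathway, 74 genes of co-receptors, adhesion molecules and intracellular effectors that are not members, gave 57 tested genes, none of which passed, with 35 higher and 7 lower without overlap and a median difference of 0.78, where 41.6% of all genes tested were higher, 11.5% lower and their median was 0.51. Those with the largest absolute differences were all higher at day 6 without overlap. The small GTPase gene Cdc42 had 116 and 116 FPKM at day 6, against 99.9 and 2.59 FPKM at day 4, with day 4 replicate 2 far below the other 3 libraries. Rras, a GTPase on which plexins act, had 122 and 158 FPKM at day 6, against 75.8 and 17.2 FPKM at day 4. Farp1, an exchange factor that acts with class A plexins, had 63.2 and 64.3 FPKM at day 6, against 9.40 and 36.4 FPKM at day 4. Flrt3, a membrane protein that binds Unc5 receptors, had 8.81 and 6.40 FPKM at day 6, against 2.76 and 0.724 FPKM at day 4. The chemokine Cxcl12 had 5.67 and 3.90 FPKM at day 6, against 0.647 and 0.922 FPKM at day 4, and its receptor gene Cxcr4 had 7.59 and 5.49 FPKM at day 6, against 3.42 FPKM and a listed 0 at day 4.

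The summed levels of marker lists of other cell types also differed between the days, some higher and some lower at day 6. Their part in the results was not tested. The background for the counts of each list, here and below, is 41.6% of all genes higher and 11.5% lower without overlap. The 11 endothelial markers bear on Nrp1, Plxnd1, Efnb2, Ephb4, Unc5b and Robo4, of which Efnb2 was lower at day 6 and Unc5b overlapped. Robo4 was not tested, with 0.0855 FPKM and a listed 0 at day 6, against a listed 0 and 0.841 FPKM at day 4. The endothelial markers summed to 29.6 and 61.5 FPKM at day 6, against 8.81 and 7.74 FPKM at day 4. Egfl7 was the highest of them in every library, with 12.4 and 17.8 FPKM at day 6, against 3.30 and 5.14 FPKM at day 4. Sox17 is also in the endoderm list. Of the 9 tested, 7 were higher without overlap, and Tie1 and Emcn were listed at 0 at day 4. The 9 fibroblast markers summed to 158 and 295 FPKM at day 6, against 12.1 and 10.03 FPKM at day 4, with 6 of 7 tested higher and Postn, Lum and Dcn listed at 0 at day 4. The 9 mesoderm markers summed to 235 and 428 FPKM at day 6, against 89.7 and 112 FPKM at day 4, with 4 of 7 higher and 1 lower and Meox1 listed at 0 at day 4. Hand1 made up most of the day 6 sums, with 181 and 329 FPKM at day 6, against 73.8 and 36.6 FPKM at day 4. The lower gene was Mesp1, with 0.328 and 0.501 FPKM at day 6, against 3.40 and 46.3 FPKM at day 4. The 6 endoderm markers summed to 34.7 and 42.1 FPKM at day 6, against 6.60 and 6.73 FPKM at day 4, with all 5 tested higher, Afp listed at 0 throughout and Ttr at day 4. The 6 primitive streak markers summed to 34.0 and 33.6 FPKM at day 6, against 276 and 784 FPKM at day 4, all 6 lower. The 7 pluripotency markers summed to 154 and 138 FPKM at day 6, against 601 and 881 FPKM at day 4, with 4 lower and 3 higher.

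The sums of the neuron and neural progenitor lists were lower at day 6. The 11 neuron markers summed to 50.2 and 20.001 FPKM at day 6, against 929 and 583 FPKM at day 4, most of it the neurofilament gene Nefl at day 4 (563 and 517 FPKM). Snap25 was listed at 0 in all libraries, Dcx and Elavl4 at day 4, and of the 5 tested, 3 were lower at day 6 and none higher without overlap. Tubb3 overlapped, with 16.7 and 6.91 FPKM at day 6, against 6.74 and 7.10 FPKM at day 4. The 9 neural progenitor markers summed to 30.3 and 15.0 FPKM at day 6, against 192 and 181 FPKM at day 4, and both tested genes were lower, with Neurog1 at 0 throughout and Neurog2 at day 4. These are Nes, with 14.3 and 5.76 FPKM at day 6, against 140.2 and 87.6 FPKM at day 4, and Sox2, with 14.8 and 8.31 FPKM at day 6, against 50.7 and 91.5 FPKM at day 4. They make up most of the sum, and Sox2 is also in the pluripotency list. Pax3, not tested, had 0.851 and 0.608 FPKM at day 6, against a listed 0 and 0.184 FPKM at day 4. The 5 neural crest markers summed to 17.3 and 14.4 FPKM at day 6, against 7.17 and 13.1 FPKM at day 4, with 1 of 3 tested higher and 2 lower. The higher gene was Erbb3, with 16.0 and 14.2 FPKM at day 6, against 3.90 and 8.09 FPKM at day 4. Foxd3 and Sox10 were the lower genes. The neuron and neural progenitor sums, each carried by few genes, were lower at day 6. Nrp1, Efna1, Sema3f, Slit2, Slit3 and Unc5c were higher at day 6, whereas Epha2 and Sema6a were lower, like these sums. In total, 19 of the 42 tested members were higher and 7 lower without overlap, beside a background of 41.6% and 11.5%. Whether the levels of any of these members are linked to neural cells was not tested.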

How the data were processed

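Per the labels' protocols, poly(A) RNA went into a stranded TruSeq kit; the submitters' processing notes list TopHat2 (2.0.11), CASAVA and mm10. For the quantifier and strand setting, the sources used here name none. The values are FPKM per transcript row, with bounds, as the authors deposited them; coverage is a deposited signal per row and was not used in tests. Symbols came from RefSeq GRCm38.p6 and GENCODE (95.5% of 35656 rows named; all 97 member rows through RefSeq), and FPKM were summed per symbol. The 11716 genes averaging 1 FPKM or more were compared on log2(FPKM + 1), pseudocount 1, with limma 3.58.1 in R 4.3.3 (trend, two-sided, Benjamini-Hochberg over all genes, threshold 0.05), without a replicate block; the step was tested on simulated data. In each of 8 families the 3 genes with the largest difference and the most abundant one were named, 25 in all, with further genes named after their values were seen. Members and lists were chosen with earlier results of these data known. Alternatives covered pseudocount, filter, scaling, GC (loess), transcript rows, each library left out and a replicate block.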

Additional observations from a re-analysis of the deposited data

How the results depend on the processing

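The median difference of the members, 0.64, was 0.33 with no filter (67 members), 0.0094 with median centring, 0.019 with quantile normalization, 0.24 with GC correction, 0.51 with the highest transcript row, and 0.22 to 0.84 with 1 library left out. Members higher without overlap, 19, were 11 with median centring and 12 with quantile normalization, where 20.3% and 23.1% of all genes were higher. With 1 library left out they were 20 to 32, where 45.1 to 65% of all genes were higher. Members lower, 7, were 11 with median centring and 10 with quantile normalization, where 26.4% and 25% of all genes were lower. With GC correction 12 were lower (27.9% of all genes). With 1 library left out 7 to 15 were lower, where 13 to 32% of all genes were lower. The median of all genes was 0.51 as deposited and -0.12, -0.02 and -0.01 after centring, quantile normalization and GC correction. Leaving out 1 library gave 0 to 25 members and 0 to 7837 genes passing. The labels tie replicate numbers to no shared culture, and deviations of replicate 1 from its day mean correlated at -0.09 between days over 11716 genes; the replicate block gave 2 members (Efna1 and Nrp1) and 67 genes passing, against 0. Signs turned for Efna4 (-0.11), Ephb2 (-0.026), Ephb3 (-0.26), Nrp2 (-0.36) and Robo1 (-0.49) with median centring, for Ephb3 (-0.077), Ephb6 (-0.12) and Robo1 (-0.51) with quantile normalization, for Nrp2 (-0.47) and Robo1 (-0.60) with GC correction, and for Nrp2 (-0.16) with the highest row. With 1 library left out the difference ranged from -2.34 to 0.14 for Efna2, -1.99 to 0.46 for Efna3, -0.10 to 1.14 for Efna4, -0.63 to 2.23 for Efna5, -0.37 to 1.11 for Ephb3, -0.16 to 1.6005 for Ephb6, -0.40 to 0.14 for Ntn1 and -1.55 to 0.48 for Unc5b. The cause was not tested for these. No other named gene changed sign. The tables hold no counts, so depth limits low genes, most at day 4, by an amount only the deposited intervals show.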
